A study of Arabidopsis thaliana with 30 samples.

Results

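The genes described here are the 2440 Arabidopsis thaliana genes that were listed as responding to antimycin A both in wild-type seedlings and in seedlings of the mutant snrk1a. They were chosen by their IDs alone, from the 3481 genes listed for wild type (WT) and the 4115 listed for snrk1a. The lists of the 5 lines of the series hold 6297 genes in all. For each gene the quantity of interest is the difference of responses, meaning its change under antimycin A in snrk1a less its change in WT. A positive difference means a larger rise or a smaller fall in snrk1a, and a negative one the reverse.

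Whole seedlings were 10 days old and stood for 5 h in liquid half-strength MS medium, either with 50 µM antimycin A (AA) or with a mock treatment. WT was the accession Col-0. The mutant line carries the allele snrk1a-2 per the sample titles, is given as a snrk1a mutant in the genotype label, and is written snrk1a here. Its table columns use KIN10, another name of SnRK1a. The series also holds the mutants jmj15-2 and crf6-2, written jmj15 and crf6 here, and the overexpression line SnRK1aOX, which are used here only for values set beside these 2 lines. Each group had 3 libraries, which gives 12 libraries for WT and snrk1a, and whether these came from separately grown seedlings is not stated in the labels. The p-values below therefore measure the spread between these libraries, which may be technical.

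SnRK1a is a catalytic subunit of SnRK1, the plant relative of yeast SNF1 and animal AMPK. The kinase is known for switching plant cells to a starvation program when sugar or energy is short: genes that break down amino acids and stored carbon are induced, and growth is slowed. Antimycin A blocks complex III of the mitochondrial electron transport chain. Plants answer such a block with mitochondrial retrograde signalling, in which nuclear genes such as the alternative oxidases are induced by NAC transcription factors released from the endoplasmic reticulum.

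The value of a gene in a library is a read count that the authors had normalised within the table of 1 line. Levels are therefore never compared between WT and snrk1a, only changes within each line, on the scale log2(value + 1). Each table holds only the genes that changed more than 2-fold with a q-value below 0.05. These were an estimated 14.7% of the tested genes in WT and 17.3% in snrk1a. The numbers of tested genes are not stated and were inferred from the deposited p-values and q-values, assuming Benjamini-Hochberg adjustment. A gene whose response was lost in 1 line cannot be among the 2440, so strong losses are outside this comparison. For a gene that changed little more than 2-fold in 1 line, a weaker change in the other line would also have removed it. For such genes, a count of larger changes in the other line is therefore partly set by the choice. The number of reads per library is unknown from these files. Between 7 and 64 of the 2440 genes had a value of 0 in a library.

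The 2 lines responded alike in direction. Of the 2440 genes, 964 rose in both lines, 1472 fell in both, and 4 were listed in opposite directions. The changes in the 2 lines had a Pearson correlation of 0.946 across genes, which share their libraries and were all selected for a strong change, so this is a description only. In 2288 genes, 93.8%, the AA values lay wholly above or wholly below the mock values in both lines. Every gene was chosen for a called change in both lines, so this share was largely set by the choice. Groups without overlap in a single gene, as given below, are therefore the rule here. The median difference of responses was -0.0037 on the log2 scale, and the middle 50% of the genes lay between -0.37 and 0.33.

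No gene passed the test of the difference itself, with 0 genes called higher in snrk1a and 0 called lower at an adjusted p under 0.05, a percentage of 0 in either direction. The test was limma's moderated interaction test over the 12 libraries with Benjamini-Hochberg adjustment, and its smallest adjusted p was 0.153. At an unadjusted p under 0.05, the difference was positive in 82 genes, 3.36%, and negative in 102 genes, 4.18%. Together these are 184 genes, 7.54% of those tested. Among them, 55 of the genes that rose in both lines had the larger rise in snrk1a and 16 the smaller. Of those that fell in both, 84 had the larger fall in snrk1a and 25 the smaller. The split depends on the scaling. When all 12 libraries were rescaled together by median ratios, the median difference of all genes moved to 0.18. The differences at an unadjusted p under 0.05 were then positive in 158 genes and negative in 47. This joint rescaling took its factors from the responding genes alone, of which more fell than rose. It can therefore absorb part of the response itself and does not show which scaling is right.

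This does not show that the 2 lines respond equally. The median half-width of the 95% confidence interval of a difference was 0.962 on the log2 scale, close to a 2-fold difference of responses. The interval lay wholly between -1 and 1 for 676 genes, 27.7% of the total. It was narrowest for strongly expressed genes, with a median half-width of 0.643 over the 813 genes of highest level against 1.65 over the 814 of lowest level. In 285 genes, 11.7%, the estimated difference was larger than 1 in either direction.

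**Figure D1:**
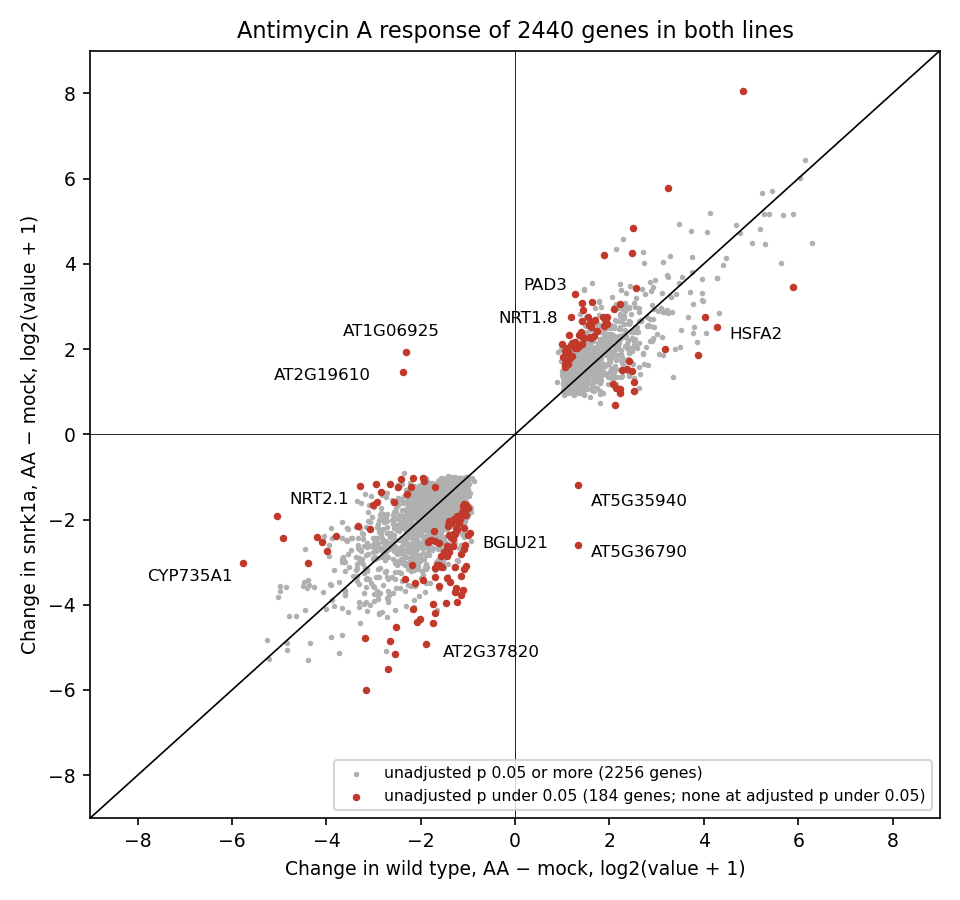
Each point is 1 of the 2440 genes, with its change under antimycin A in WT on the horizontal axis and in snrk1a on the vertical axis, both as AA less mock on the scale log2(value + 1), and the diagonal marks equal changes. Red points are the 184 genes at an unadjusted p under 0.05. A reader should see that the cloud follows the diagonal and that 4 genes lie in the quadrants of opposite direction.

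The gene with the clearest smaller fall in snrk1a was NRT2.1, the main high-affinity nitrate transporter of roots. Its WT values were 1343, 522.5 and 607.3 under mock treatment and 18.27, 26.03 and 21.93 under AA. In snrk1a they were 1444, 424.8 and 685.8 under mock treatment and 166, 255.9 and 178.6 under AA. The AA values lay below the mock values in both lines without overlap, and the fall was 33-fold in WT against 3.8-fold in snrk1a. The log2 change was -5.04 ± 0.42 in WT and -1.93 ± 0.42 in snrk1a (SE, n = 3 libraries per group). The difference of 3.12 ± 0.60 had an adjusted p of 0.153 (limma). Its locus AT1G08090 lies on chromosome 1 from 2524023 to 2526322 on the plus strand in the RefSeq annotation of TAIR10.1, and 68.5% of its transcript aligns to NRT2.2 at 91.2% identity, so part of its reads could belong to that neighbour, which is in neither table.

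A second nitrate transporter, NRT1.8, which takes nitrate back out of the xylem, rose in both lines. Its WT values were 1875, 1288 and 1010 under mock treatment and 2831, 2973 and 3177 under AA. The snrk1a values were 1491, 1333 and 1156 under mock treatment and 5786, 6767 and 7410 under AA. The rise was 2.2-fold in WT and 5.0-fold in snrk1a, and neither line's groups overlapped. The difference was 1.18 ± 0.29, with an adjusted p of 0.554. The gene, AT4G21680, lies on chromosome 4 from 11517353 to 11519805 on the minus strand.

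The lectin gene AT5G35940 was the clearest of the 4 genes listed in opposite directions. It encodes a mannose-binding lectin superfamily protein per the annotation and lies on chromosome 5 from 14090574 to 14093007. Its values in WT rose from 144.6, 91.36 and 158.5 under mock treatment to 278.9, 370.1 and 331.9 under AA. In snrk1a they fell from 124.5, 163.5 and 167 to 87.96, 40.47 and 77.85. The groups did not overlap in either line. The changes were 1.34 ± 0.32 in WT and -1.19 ± 0.32 in snrk1a, and the difference of -2.53 ± 0.46 had an adjusted p of 0.153.

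The other 3 genes of opposite direction carry little weight. AT1G06925 had values of at most 7.68 in any library, with all 3 WT AA libraries and all 3 snrk1a mock libraries at 0, and it overlaps the non-coding gene AT1G04533 over 270 bases on the same strand. AT2G19610, a RING/U-box protein gene, had values of 11.39, 16.21 and 9.352 in WT mock and at most 4.265 under AA, and at most 3.871 in snrk1a mock, while 1 snrk1a AA library at 34.79 stood far above the others at 5.496 and 5.746. In AT5G36790 the groups overlapped in both lines, and its transcript aligns over its whole length to PGLP1 at 98.7% identity. Their adjusted p-values were 0.408, 0.554 and 0.554.

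Among genes that fell in both lines, BGLU21 had the smallest p for a larger fall in snrk1a. It encodes a beta-glucosidase of root endoplasmic reticulum bodies (AT1G66270, chromosome 1 from 24699868 to 24703166). The WT values went from 5237, 5002 and 6774 to 2204, 1908 and 2704, and the snrk1a values from 4643, 4425 and 5663 to 942, 585 and 891. The fall was 2.5-fold in WT and 6.2-fold in snrk1a, without overlap of the groups in either line. The difference was -1.31 ± 0.30 with an adjusted p of 0.408. Its near copy BGLU22, to which 96.1% of its transcript aligns at 91.5% identity, also fell in both lines, with a difference of -0.66 ± 0.32.

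The remaining genes with the smallest p-values all had an adjusted p of 0.554. AT3G44830, a lecithin:cholesterol acyltransferase family gene on chromosome 3 from 16368890 to 16372443, rose 2.7-fold in WT and 7.6-fold in snrk1a. FLA1, a fasciclin-like arabinogalactan protein of the cell surface on chromosome 5 from 22558044 to 22560541, fell 2.2-fold in WT and 3.7-fold in snrk1a. AT2G22930, a UDP-glycosyltransferase gene on chromosome 2 from 9759595 to 9761240, fell 4.2-fold and 21-fold. AT2G37820, a C1 domain gene on chromosome 2 from 15847450 to 15848659, fell 3.7-fold and 30-fold, but its snrk1a AA values were 0, 0.03993 and 2.566, so that its fold change rests on the pseudocount.

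**Figure D2:**
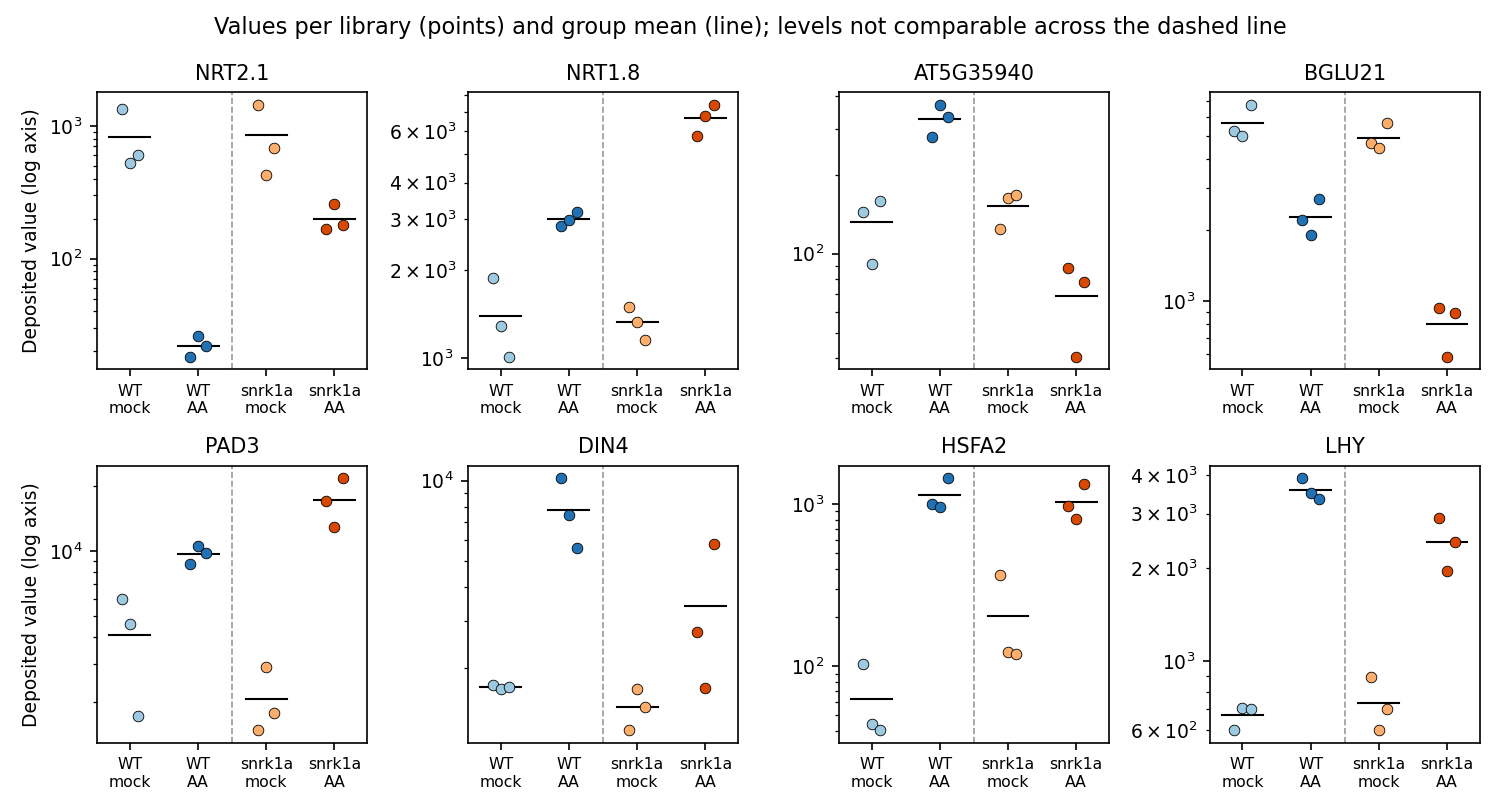
Deposited normalised values of 8 genes on a log axis, with 1 point per library and a line at the mean of each group of 3. The dashed line separates the 2 tables, whose levels are not comparable, so only the step from mock to AA within a line should be read: NRT2.1 falls 33-fold in WT and 3.8-fold in snrk1a, and AT5G35940 moves in opposite directions.

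The gene lists below were chosen with earlier results of these data known, and no list was tested as a set. Some lists share members: AOX1A and NDB4 of alternative respiration and GSTU25 of the glutathione transferases are also mitochondrial dysfunction genes. Such lists are not independent of each other. They are described by counts, by the median difference and by the per-library medians, and no member of any list passed the test of the difference. A list of rising genes has to be read against all 964 genes that rose in both lines. Of these, 603 genes, 62.6%, had the larger estimated rise in snrk1a, and their median difference was 0.13. Of the 1472 genes that fell in both, 868, 59%, had the larger estimated fall in snrk1a, with a median difference of -0.10. Both leanings depend on single libraries or on the scaling: without snrk1a AA replicate 3 the median of the rising genes was -0.016, without WT mock replicate 1 it was 0.0064 in the same genes, and under the joint rescaling the median of the rising genes was 0.32 and that of the falling genes 0.079.

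A second description asks, gene by gene, whether the 3 snrk1a AA values and the 3 WT AA values overlap when each is taken relative to its own line's mock mean. It ignores the error of the mock means. Over all 2440 genes, snrk1a lay wholly above WT in 15% and wholly below in 11.9%. Among the genes that rose in both lines these shares were 27.3% above and 5.91% below, and among those that fell in both 6.79% above and 15.8% below.

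The starvation genes are the known targets of SnRK1, most of them enzymes that break down amino acids, sugars or cell contents. Of 30 genes in the list, 14 were listed in both lines, all rising. The estimated rise was smaller in snrk1a in 14 of 14, against 361 of the 964 rising genes as a whole. The median change was 1.81 in WT and 1.26 in snrk1a, and the median difference was -0.55. Another 6 members were listed for WT alone, namely ETFQO, DIN3, ASN1, LKR, MCCB and GDH1. That is 6 of the 20 members listed for WT, near the share over all genes, 1041 of 3481. The log2 fold changes of the 6 were between 1.11 and 2.09 in the authors' deposited table. They are genes of amino acid breakdown and nitrogen storage. DRM2 was listed for snrk1a alone, where it fell, with -1.13 in the authors' deposited table. A gene missing from 1 table has not been shown to differ.

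DIN4, the E1 beta subunit of the branched-chain keto acid dehydrogenase, was the single starvation gene with an unadjusted p under 0.05. Its WT values went from 1722, 1670 and 1690 under mock treatment to 10230, 7416 and 5583 under AA. In snrk1a they went from 1169, 1671 and 1430 to 2722, 1678 and 5790. The third snrk1a AA library lay within the WT range of the response and the second barely above its mock group. The difference was -1.07 ± 0.49 with an adjusted p of 0.653.

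The same split ran through the whole list. The list median over the own mock mean was 2.16, 1.86 and 1.63 in the WT AA libraries and 1.01, 0.564 and 2.12 in snrk1a AA replicates 1, 2 and 3. In 14 of 14 members replicate 3 was the highest of the snrk1a AA libraries, as it was in 83.2% of all genes that rose in both lines. No member had all 3 snrk1a AA libraries below WT. In 13 of 14 members replicates 1 and 2 lay below all WT AA libraries, as they did in 261 of the 964 genes that rose in both lines. Replicates 1 and 2 were set apart after the values were seen, and the 14 members share these libraries. The count of 13 therefore describes these libraries only. The median difference was -0.98 without replicate 3, -0.23 without replicate 2 and -0.36 under the joint rescaling. Without replicate 2 the estimated rise was smaller in snrk1a in 11 of 14 members. At the lowest, the alternative settings that kept all libraries also gave 11. The 2 members of highest level, GDH2, a glutamate dehydrogenase, and DIN10, of the raffinose synthase family, had differences of -0.33 ± 0.41 and -0.54 ± 0.42.

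The mitochondrial dysfunction genes, the standard readout of retrograde signalling, leaned the other way. Of 24 genes 16 were listed in both lines, all rising, and the estimated rise was larger in snrk1a in 15 of 16. The median change was 1.71 in WT and 2.40 in snrk1a, and the median difference was 0.65. The list median over the own mock mean was between 1.61 and 1.79 in the WT AA libraries and between 2.23 and 2.68 in the snrk1a AA libraries, without overlap. In 15 of 16 members the snrk1a AA values lay wholly above those of WT, against 27.3% of all rising genes. A further 7 members, among them OM66 and AT12CYS-2, were listed for snrk1a alone. These were 7 of the 23 members listed for snrk1a, against 1675 of all 4115 genes listed for that line.

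Of these 16 genes, 6 had an unadjusted p under 0.05, all with the larger rise in snrk1a, against 55 of all 964 rising genes. UGT74E2, a glycosyltransferase that acts on the auxin precursor indole-3-butyric acid, went in WT from 18050, 15020 and 11430 to 54040, 56720 and 58890. In snrk1a it went from 9596, 10400 and 7323 to 60600, 50910 and 74190. The groups did not overlap in either line, and the rise was 3.9-fold in WT and 6.8-fold in snrk1a. The difference was 0.81 ± 0.30 with an adjusted p of 0.565. The others were GSTU25, a glutathione transferase, with 1.23 ± 0.46, NIT4, a nitrilase of cyanide detoxification, with 0.85 ± 0.36, AT2G41730 with 0.76 ± 0.35, ABCB4, an auxin transporter, with 0.66 ± 0.29, and SOT12, a sulfotransferase, with 0.64 ± 0.30. The exception among the 16 was CYP81D11, a cytochrome P450, with -0.39 ± 0.50.

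Alternative respiration includes the alternative oxidases, which let electrons pass around complex III, the site that antimycin A blocks, and alternative NAD(P)H dehydrogenases. All 5 listed members had a larger estimated rise in snrk1a, with differences from 0.47 to 0.71 and a median of 0.63, which was 0.41 without WT mock replicate 1. AOX1A, the main stress-induced alternative oxidase, went in WT from 29650, 28540 and 18320 to 55980, 56520 and 61290, and in snrk1a from 16820, 22270 and 20780 to 61970, 59650 and 70320. The groups did not overlap in either line, and the rise was 2.3-fold in WT and 3.2-fold in snrk1a. Its difference was 0.47 ± 0.30, and that of NDB2, an external NAD(P)H dehydrogenase, was 0.63 ± 0.29, both short of the threshold with adjusted p-values of 0.749 and 0.659. AOX2 and NDB4 were listed for snrk1a alone. The NAC regulators, which include NAC013 of this pathway, had a median difference of 0.14 over 9 members, near that of all rising genes, and it was -0.053 without snrk1a AA replicate 3 and 0.35 without snrk1a AA replicate 2.

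**Figure D3:**
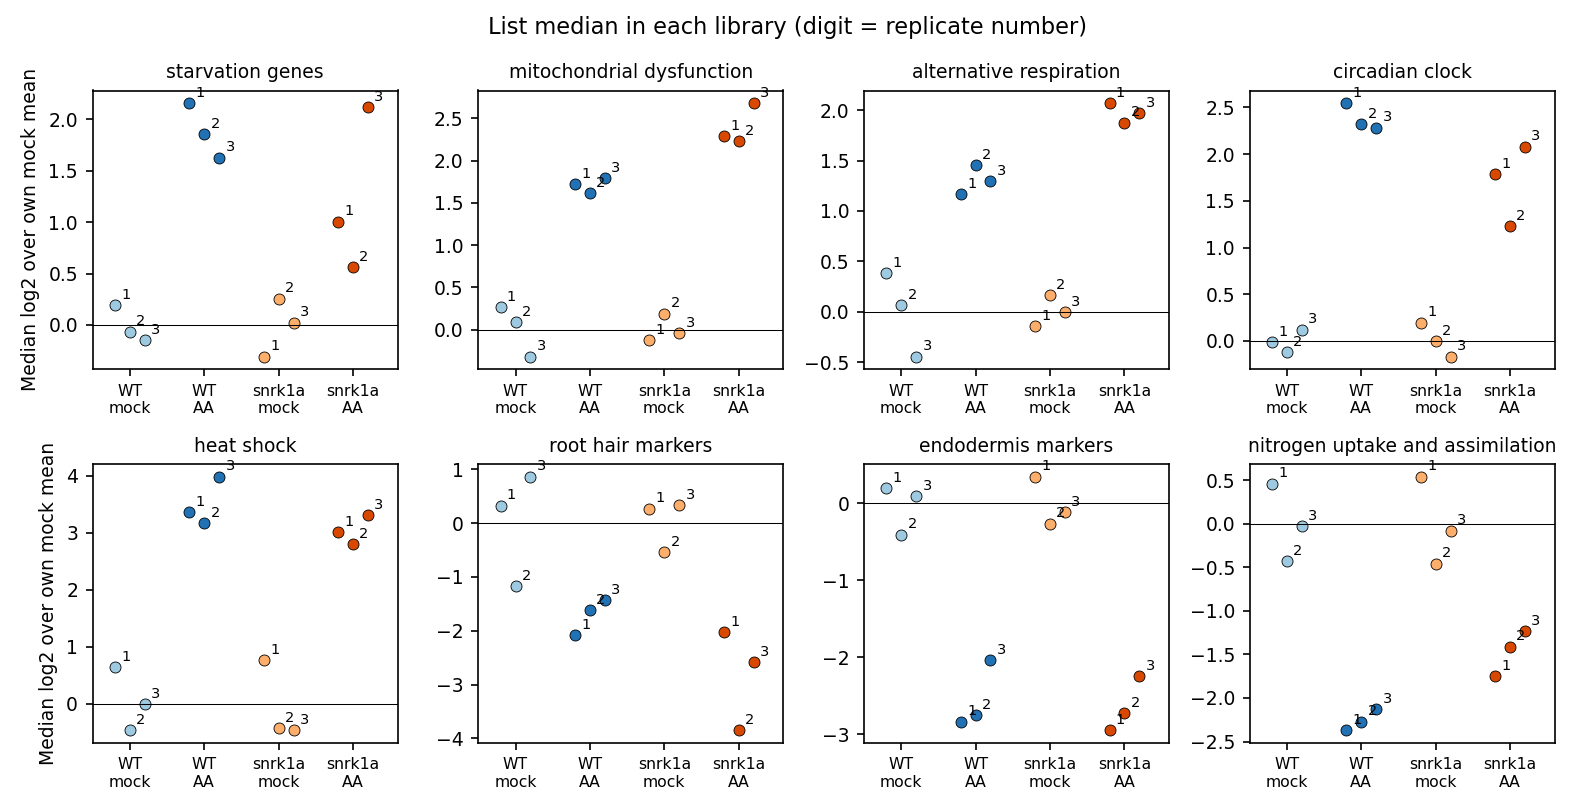
Median over the list members of the log2 value relative to the own line's mock mean, with 1 point per library and its replicate number beside it. In the starvation panel snrk1a AA replicate 3 sits at 2.12, among the WT AA libraries, while replicates 1 and 2 sit at 1.01 and 0.564. In the mitochondrial dysfunction panel the 3 snrk1a AA libraries all lie above the 3 of WT.

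The listed genes of the circadian clock and its relatives rose in both lines, and their estimated rise was smaller in snrk1a in 8 of 8 members. The median difference was -0.63, and -0.40 without snrk1a AA replicate 2. Without that replicate the estimated rise was smaller in 6 of 8 members. At the lowest, the alternative settings that kept all libraries also gave 6. The list median over the own mock mean was 2.55, 2.32 and 2.28 in the WT AA libraries and 1.79, 1.23 and 2.08 in those of snrk1a, without overlap. Gene by gene, the snrk1a AA values lay wholly below those of WT in 3 of 8 members, against 5.91% of all rising genes. LHY, a core morning repressor, went in WT from 600.8, 709 and 704.7 to 3904, 3493 and 3347, and in snrk1a from 892.8, 600.3 and 702.5 to 2901, 1965 and 2421. Its rise was 5.3-fold in WT and 3.3-fold in snrk1a, and the difference of -0.68 ± 0.27 had an adjusted p of 0.607. RVE8 and LNK2, which activate evening genes together, had differences of -0.84 ± 0.30 and -0.77 ± 0.33, and CCA1, the partner of LHY, -0.57 ± 0.38. LNK2 overlaps annotated genes on the opposite strand over 266 and 93 bases, DIN4 over 27 and NRT1.8 over 44, and the counting is not stated to use strand. The labels do not give the time of day at harvest.

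The heat shock genes had the highest median change of all lists in both lines, of 3.48 in WT and 3.04 in snrk1a over 21 members, all of which rose. The estimated rise was smaller in snrk1a in 16 of them and the median difference was -0.30. It was 0.011 without snrk1a mock replicate 1 and -0.59 without snrk1a mock replicate 3. HSFA2, a heat stress transcription factor, rose 19-fold in WT and 5.8-fold in snrk1a. Its mock values were 103.1, 43.67 and 40.25 in WT and 365.6, 123 and 118.7 in snrk1a, and its AA values were 1005, 958.7 and 1445 in WT and 975, 802.6 and 1323 in snrk1a. The first mock library was the highest of its group in both lines. The difference was -1.75 ± 0.61 with an adjusted p of 0.565. HSP18.2, a small heat shock protein, had a difference of -1.26 ± 0.57, while HSP70-4 and HSP90.1, the 2 of highest level, had -0.42 ± 0.47 and 0.13 ± 0.60.

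Detoxification and defence genes had positive median differences whose size depended on single libraries. A positive difference was found in 62.6% of all genes that rose in both lines. Of 20 glutathione transferases, 19 rose in both lines and 1 fell, and 15 had a positive difference. Their median of 0.24 was 0.0039 without snrk1a AA replicate 3 and 0.57 without WT mock replicate 3. GSTU22 had a difference of 1.14 ± 0.35 and an adjusted p of 0.554. Of 10 immunity genes, all of which rose, 8 had a positive difference, with a median of 0.35 that was 0.045 without WT mock replicate 1 and 0.54 without WT mock replicate 3. PAD3, the last enzyme of camalexin synthesis, went in WT from 5992, 4581 and 1715 to 8641, 10490 and 9812, and in snrk1a from 1479, 2908 and 1779 to 16910, 12840 and 21690. Its mock values spread widely in WT, and the AA groups lay above the mock groups in both lines. The difference was 1.68 ± 0.53 with an adjusted p of 0.565. OXI1, a kinase activated by hydrogen peroxide, had a difference of 0.92 ± 0.29, and WRKY40, a stress transcription factor, 0.76 ± 0.51.

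Hormone and rapid stress lists had medians of either sign. Among 13 genes of rapid stress and ethylene signalling, all rising, 9 had a positive difference, against 603 of all 964 rising genes. The median of the 13 was 0.32, and 0.17 without snrk1a AA replicate 3. Of 9 jasmonate genes, 8 rose and 1 fell in both lines, and 7 had a negative difference, with a median of -0.27, which was 0.014 without WT mock replicate 3. LOX2, a lipoxygenase of jasmonate synthesis, had -0.76 ± 0.39, whereas CYP94B3, which inactivates jasmonoyl-isoleucine, had 0.87 ± 0.37. The 7 abscisic acid genes had a median of -0.13, which was 0.058 under the joint rescaling, 0.20 without WT AA replicate 2 and -0.29 without snrk1a AA replicate 3. The highest was ABR1, an AP2 factor that represses abscisic acid responses, with 0.66 ± 0.26. The 7 auxin genes had a median of 0.026, which was -0.074 without WT mock replicate 2 and 0.29 without WT AA replicate 2.

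The 8 cytokinin genes fell in both lines with a median difference of -0.21 that was -0.050 without snrk1a mock replicate 1 and -0.38 without WT mock replicate 1, and 1 of them stood far from the rest. CYP735A1, which makes trans-zeatin type cytokinins in roots, went in WT from 184.5, 208.9 and 120.3 to 2.037, 0.06692 and 7.981, and in snrk1a from 141.3, 80.09 and 73.02 to 10.7, 17.18 and 6.697. The WT AA values are so low that the fold change of 55 in WT rests on the pseudocount, against 8.0 in snrk1a. Its difference of 2.76 ± 0.91 had an adjusted p of 0.565 and was 1.47 at its lowest among the alternative settings that kept all libraries. The receptor AHK4 and the response regulator ARR4 had differences of -0.29 ± 0.25 and -0.25 ± 0.26. CRF1, the only listed relative of CRF6 found in both tables, had 0.051 ± 0.368, and SnRK1 subunits, JMJ15 and CRF6 were not among the 2440 genes.

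The nitrogen and iron list members in both tables fell in both lines. The estimated fall was smaller in snrk1a in 4 of 4 nitrogen genes, with a median difference of 0.65, which was 0.42 without WT mock replicate 1. Beside NRT2.1 these were AMT1;3, an ammonium transporter, with 0.68 ± 0.49, GLN1;2, a glutamine synthetase, with 0.62 ± 0.34, and AMT1;2 with 0.056 ± 0.436. AMT1;1 and GLN1;1 were listed for snrk1a alone and rose there, by 1.42 and 1.32 in the authors' deposited table. NRT1.8, described above and not in this list, rose in both lines. The estimated fall was also smaller in snrk1a in 5 of 5 iron genes, with a median of 0.61, which was 0.30 without WT mock replicate 1. IRT1, the iron transporter of the root epidermis, had mock values from 61.04 to 1279 in WT, and its difference of 1.31 ± 1.398 was smaller than its SE. Of the iron genes in 1 table, ABCG37 and BHLH39 rose and NAS2 fell in snrk1a, by 1.14, 1.25 and -5.45 in the authors' deposited table, and in WT BTS had 1.07 and BHLH100 had -6.53 there.

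Markers of root cell types fell in both lines. All 6 root hair markers had the larger estimated fall in snrk1a, with a median difference of -1.10 that was -0.46 without WT mock replicate 2, the library in which this list was lowest among the WT mock group. RSL4, a master regulator of root hair growth, and EXPA7, a root hair expansin, had differences of -1.84 ± 0.83 and -2.09 ± 0.86, but their WT groups overlapped. In WT the summed value of the 6 markers was 1238 to 5142 under mock treatment and 663.4 to 921.9 under AA. In snrk1a it was 1772 to 3056 under mock treatment and 194.6 to 657.2 under AA. No marker was at 0, and these sums are to be read within a line only. Fewer cells of a type and less RNA per cell cannot be told apart in whole seedlings.

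The endodermis markers split, with a negative difference in 4 of 5 members, -1.58 at the lowest, and a positive one in CASP4. CASP5 was listed for snrk1a alone, with a log2 fold change of -3.94 in the authors' deposited table. CASP1 and CASP2, membrane proteins of the Casparian strip, had differences of -1.15 ± 0.43 and -1.06 ± 0.44, and PER64, a peroxidase of Casparian strip lignin, had -0.87 ± 0.43. CASP4 had 1.41 ± 0.53, falling in WT from 157.1, 88.31 and 116.8 to 8.11, 8.679 and 5.977 and in snrk1a from 120.9, 67.56 and 100.5 to 16.95, 15.36 and 19. The median difference over the 5 members was -1.06, while the median change was -2.55 in WT and -2.46 in snrk1a, so these summaries differ in sign. In WT the summed value of the 5 members was 1305 to 1994 under mock treatment and 466.5 to 514.3 under AA. In snrk1a it was 1327 to 1914 under mock treatment and 159.3 to 265.8 under AA. No marker was at 0, and these sums too are to be read within a line only. NRT2.1, IRT1, CYP735A1 and BGLU21 are also known mainly from roots, and the part of root cell content in their differences was not tested.

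A negative difference was found in 59% of all genes that fell in both lines. Of 19 cell wall expansion genes, 17 fell in both lines and 2 rose, and 13 had a negative difference. Their median of -0.11 was 0.077 under the joint rescaling, 0.034 without snrk1a AA replicate 1 and -0.34 without snrk1a AA replicate 2. EXPA6, an expansin, had -0.78 ± 0.23 and an adjusted p of 0.554, and XTH17 and XTH24, wall-modifying enzymes, had -0.22 ± 0.32 and -0.0035 ± 0.3018. The transcript of XTH17 aligns to XTH18 at over 90% identity. CYCB1;2, a mitotic cyclin and the only dividing cell marker of 6 in both tables, went in WT from 1220, 1519 and 1160 to 606.4, 510 and 666.7, and in snrk1a from 1684, 1891 and 1591 to 560.9, 456.1 and 405.7. It fell 2.2-fold in WT and 3.7-fold in snrk1a, and its difference of -0.74 ± 0.26 had an adjusted p of 0.565.

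The remaining lists had few members or medians near 0. The 4 genes of the unfolded protein response had a median difference of 0.12, which was -0.021 without snrk1a mock replicate 2 and 0.32 without snrk1a mock replicate 1, with 0.12 ± 0.21 for the chaperone CRT1A and -0.038 ± 0.228 for CNX1. The 5 glucosinolate genes had a median of 0.066, which was -0.16 without snrk1a AA replicate 2, 0.19 without snrk1a AA replicate 1 and -0.085 with library weights, with 0.24 ± 0.24 for CYP83A1 and 0.066 ± 0.278 for the regulator MYB28. The 3 flavonoid genes had a median of -0.42, which was -0.066 without WT mock replicate 2 and -0.73 without WT mock replicate 1, with -0.56 ± 0.54 for chalcone synthase CHS and -0.42 ± 0.52 for FLS1. The trehalose phosphate genes TPPB and TPS11 had 0.022 ± 0.426 and -0.32 ± 0.47. No mesophyll, guard cell or phloem marker was listed for both lines, which in tables of responding genes says nothing about the tissue.

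**Figure D4:**
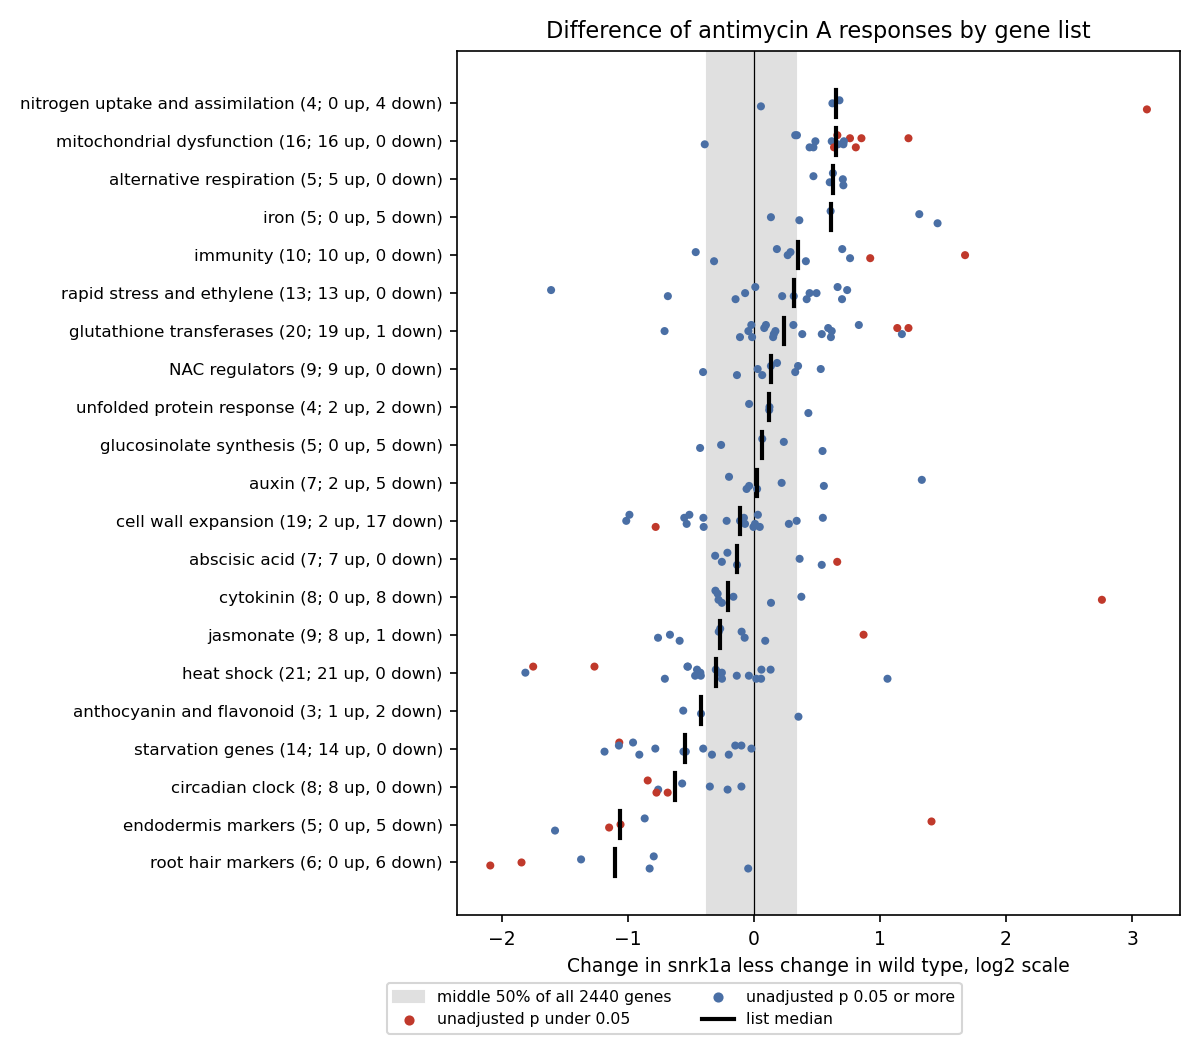
Difference of responses, as the change in snrk1a less the change in WT on the log2 scale, for each member of the lists with 3 or more members in both tables. Black bars are list medians, red points have an unadjusted p under 0.05, and the grey band holds the middle 50% of all 2440 genes. The numbers behind each name give the members and how many rose or fell in both lines.

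The changes of the other 3 lines were placed beside those of WT and snrk1a, each computed within its own table and with no test between lines. Of the 2440 genes, 1767 were also listed for jmj15, 2004 for crf6 and 1299 for SnRK1aOX. The direction was the same in 1767, 2003 and 1297 of these. Over the 660 genes that rose in all 5 lines, the median change was 1.61 in WT, 1.79 in snrk1a, 1.70 in SnRK1aOX, 1.96 in jmj15 and 1.79 in crf6. WT had the smallest rise of the 5 lines in 216 of them, 32.7%, and snrk1a in 132, 20%.

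For the starvation genes snrk1a was at the low end. Over the 13 members listed in all 5 lines the median change was 1.27 in snrk1a, against 1.83 in WT, 1.79 in SnRK1aOX, 2.03 in jmj15 and 2.15 in crf6. The rise was the smallest of the 5 lines in snrk1a in 10 of 13 genes and in WT in 0. This ordering contains snrk1a AA replicate 3 and was not tested.

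For the clock and heat shock genes WT was at the high end. For 7 clock genes the median change was 2.37 in WT, 2.02 in jmj15, 1.94 in crf6, 1.73 in snrk1a and 1.67 in SnRK1aOX. WT had the largest rise in 4 of the 7. The smallest was in SnRK1aOX in 5 and in snrk1a in 1. For 19 heat shock genes the median change was 3.75 in WT, 3.06 in snrk1a and between 1.93 and 2.84 in the rest. WT had the largest rise in 13 of these 19. The mitochondrial dysfunction genes, 15 in all 5 tables, had 1.82 in WT, 1.82 in crf6, 2.02 in SnRK1aOX, 2.53 in snrk1a and 3.07 in jmj15, so the median was higher than that of WT in SnRK1aOX and jmj15 as well. WT had the smallest rise in 6 of the 15 and SnRK1aOX also in 6.

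NRT2.1 changed by -5.04 ± 0.38 in WT, -3.68 ± 0.43 in crf6, -2.58 ± 0.29 in SnRK1aOX, -2.23 ± 0.46 in jmj15 and -1.93 ± 0.40 in snrk1a (SE within each table), so the estimated fall was largest in WT and smallest in snrk1a. PAD3 changed by 1.41 in WT and by 2.33 or more in each of the other lines. HSFA2 changed by 4.28 in WT and by between 2.01 and 2.84 elsewhere, and CASP4 by -3.80 in WT and by between -2.62 and -1.69 elsewhere. FLA1 fell more in snrk1a, by 1.90, than in any other line, where the change was between -1.59 and -1.14. AT5G35940 and AT2G37820 were listed for WT and snrk1a alone.

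Over the genes chosen for an unadjusted p under 0.05, the same count can be made, bearing in mind that this choice already places the 2 lines apart. Of 46 such genes that rose in all 5 lines with the larger rise in snrk1a, WT had the smallest rise of the 5 lines in 36, while the largest was in jmj15 in 27 and in snrk1a in 16. Over all 660 genes that rose in all 5 lines these counts were 216, 281 and 138. Of 42 that fell in all 5 lines with the larger fall in snrk1a, snrk1a had the largest fall in 37 and WT the smallest in 22. Over all 465 genes that fell in all 5 lines, snrk1a had the largest fall in 193, 41.5%, and WT the smallest in 68, 14.6%.

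**Figure D5:**
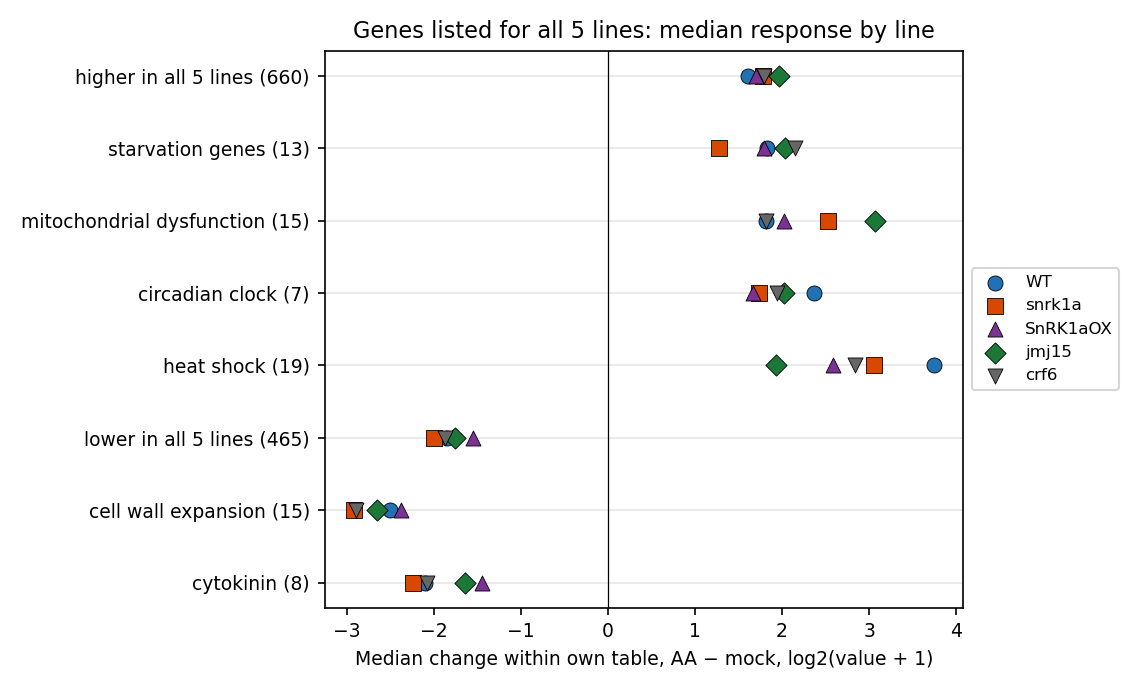
Median change under antimycin A, as AA less mock on the scale log2(value + 1), over the genes of each list that were listed for all 5 lines, each line computed in its own table, with the number of genes in brackets. The square of snrk1a stands apart to the left in the starvation row at 1.27, and the circle of WT stands to the right in the heat shock and clock rows at 3.75 and 2.37.

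The median difference was between -0.049 and 0.018 on each of the 5 nuclear chromosomes. The 19 listed IDs of the mitochondrial genome all rose in both lines, with a median change of 1.498 in WT and 1.485 in snrk1a and a median difference of 0.0070. The RefSeq table used here does not pair these IDs with names.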

How the data were processed

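Whole-seedling RNA was sequenced in 30 libraries, of which 12 enter the fit. Reads were aligned with Bowtie 0.12.2 to TAIR10, per the submitters' processing notes. How reads were counted, normalised and tested is not given in the sources used here. The authors deposited 1 table per line with a signal per library (normalised read counts that are no longer whole), log2 fold changes, p-values and q-values, and in some tables −log10 q, which was not used. Depth is therefore unknown, and no counting interval is given.

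Values were transformed to log2(value + 1) and fitted with limma 3.58.1 in R 4.3.3: 4 group means, the interaction contrast, eBayes with trend, two-sided, Benjamini-Hochberg over 2440 genes, threshold 0.05. The procedure was tested on simulated data. Alternatives were 2 pseudocounts, a filter at a mean of 20, joint rescaling, centring, other variance models, replicate blocks, other adjustment and leaving out each library.

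No gene passed, so the text names the 5 genes of smallest p in each direction, the 4 of opposite direction and the 2 members of highest level per list. List members with an unadjusted p under 0.05, and the other members given with values, were named after their values were seen, as were the counts over 5 lines and of overlapping AA values. The members and lists were chosen with earlier results of these data known. Of the 2440 IDs 2421 matched the RefSeq table of TAIR10.1. Near copies were sought with blastn 2.17.0 at 90% identity over 50% of a transcript.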

Additional observations from a re-analysis of the deposited data

Results flagged for a closer look

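Among the 4 genes listed in opposite directions, 3 had every AA library above mock in 1 line and below mock in the other, which is what brought them here. The lectin gene AT5G35940 had a difference of -2.53 (adjusted p = 0.153 with limma). AT1G06925, with no value above 7.68, had 4.24 (adjusted p = 0.408). AT2G19610, with a snrk1a AA library at 34.79 against 5.496 and 5.746, had 3.84 (adjusted p = 0.554). None of the 3 differences passed the test of the difference itself.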

How the results depend on the processing

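With every library kept, the 0 calls in either direction changed under 2 alternatives: eBayes without trend called 1 gene higher in snrk1a, AT1G06925 at an adjusted p of 0.04, and library weights called 1 higher, NRT2.1 at 0.0334, and 1 lower, AT5G35940 at 0.0334. Leaving out each library gave 0 to 1 calls in each direction: 1 higher without WT mock replicate 2, 1 higher without snrk1a mock replicate 1 (NRT2.1, adjusted p = 0.0261) and 1 lower without snrk1a AA replicate 3. With the replicate block within each line or shared over both lines the calls were 0 and 0. Same-numbered libraries did not deviate together in every pair, with correlations from 0.151 to 0.3 between the mock groups of the lines but from -0.118 to -0.0536 between the AA groups, so the numbers were not taken as pairs. A robust eBayes fit was added after seeing the data.

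Of 75 named genes 61 kept their direction whichever library was left out. The other 14 changed direction when some library was left out. Their ranges were -0.0884 to 0.2127 for CRF1, -0.7683 to 0.03037 for TPS11, -0.3435 to 0.2519 for TPPB, -0.2568 to 0.7049 for HSP90.1, -0.1363 to 0.2365 for GSTU19, -0.286 to 0.06844 for JAZ1, -0.2453 to 0.3086 for TCH3, -0.3278 to 0.01824 for HAB1, -0.06154 to 0.4148 for GH3.3, -0.3933 to 0.0122 for GH3.5, -0.2063 to 0.1071 for XTH24, -0.3986 to 0.06257 for XTH17, -0.119 to 0.05511 for CNX1 and -0.1582 to 0.1922 for MYB28. Joint rescaling turned JAZ1 to 0.1182, HAB1 to 0.05769, XTH24 to 0.1879 and CNX1 to 0.1537. Centring turned XTH24 to 0.0002123, and library weights turned TCH3 to -0.1078, GH3.3 to -0.003534 and MYB28 to -0.08489. The causes were not tested. Library weights gave 166 positive and 207 negative differences at an unadjusted p under 0.05. The number of genes at an unadjusted p under 0.05 ranged from 33 to 154 for positive and from 74 to 174 for negative differences when a library was left out.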
